A study of Homo sapiens with 12 samples.

Results

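The 10 genes of nucleic acid sensing described here were followed in RNA-sequencing counts of venetoclax-sensitive lymphoma cells and of their venetoclax-resistant derivatives. The genes were matched by their GENCODE symbols and were chosen with earlier results of these data known. They are TREX1, SAMHD1, CGAS, STING1, IFI16, RIGI (DDX58 in older releases), IFIH1, DHX58, MAVS and ZBP1, and all 10 were found among the 60675 Ensembl identifiers of the count files. SUDHL6 and SUDHL16 are human diffuse large B cell lymphoma (DLBCL) lines. The SUDHL6-parental and SUDHL16-parental cells had not been selected with the drug, whereas SUDHL6-resistant and SUDHL16-resistant cells were made from them by months of rising exposure to venetoclax, an inhibitor of BCL2. The resistant lines were kept under the drug, and both kinds of cells were put into fresh medium before experiments. Whether venetoclax was present when RNA was taken is not given in the sources used here. Each line gave 1 resistant population, and each of the 4 groups has 3 libraries, 12 in all. Library preparation used a NEBNext Ultra II kit for SUDHL6, read on a HiSeq instrument, and an Illumina stranded kit with RiboZero Plus depletion for SUDHL16, read on a NovaSeq. Kit, instrument and line therefore cannot be told apart, and the comparison of interest is resistant against parental within a line.

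Cells recognize DNA and RNA that lie where they should not be. Double-stranded DNA in the cytosol is bound by cGAS (CGAS), which makes the messenger cGAMP, and cGAMP activates STING (STING1). TREX1, the main DNA exonuclease of the cytosol, degrades such DNA, and SAMHD1 hydrolyses deoxynucleotides and helps to clear nascent DNA at stalled replication forks. IFI16 binds DNA in the nucleus and cytosol. Viral or mislocated RNA is bound by RIG-I (RIGI) and MDA5 (IFIH1), which signal through the mitochondrial adaptor MAVS, while LGP2 (DHX58) has the same kind of helicase but lacks the signalling domains. ZBP1 binds nucleic acids in the Z conformation and can start necroptosis through RIPK3. Both arms lead to type I interferon, and most of these genes are themselves known to be induced by interferon.

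The SUDHL6 libraries held 33992784 to 40885665 counts and the SUDHL16 libraries 4131927 to 22068221. CE-26, a SUDHL16-parental library, had the lowest total and stood apart. It had counts on 34938 identifiers, and 31.9% of its counts were on identifiers that GENCODE release 44 does not list, against 1.61% to 5.06% in the other SUDHL16 libraries. Fold changes in SUDHL16 are therefore also given without CE-26. All 5 B cell markers given here (MS4A1, CD79A, CD79B, PAX5 and CD22) were counted in every library, with summed levels of 2254 to 4020 CPM (counts scaled to a common library total, by TMM within each line). The 8 T and NK cell markers summed to at most 20.3 CPM, the highest value being in CE-26, and the 8 myeloid markers to at most 15.2 CPM, again with CE-26. The 7 epithelial and fibroblast markers summed to 19.7 to 48.2 CPM in SUDHL16-parental libraries (19.7 to 20.1 without CE-26) and 0.423 to 0.737 CPM in SUDHL16-resistant libraries. DCN alone made nearly all of this sum in CE-25 and CE-27 (19.7 CPM in each), where EPCAM, KRT8, KRT18 and COL1A1 were at 0. The 8 T and NK cell markers summed to 2.04 to 3.85 CPM in SUDHL16-parental libraries without CE-26 and 11.7 to 13.7 CPM in SUDHL16-resistant libraries, with CD3D, CD2, CD5, CD7 and KLRD1 at 0 in the latter. CD3E alone made 10.8 to 13.4 CPM of it there, against 1.16 and 1.30 CPM in CE-25 and CE-27. Each of these differences thus lay in 1 gene, and its part in the SUDHL16 results was not tested. In bulk RNA, fewer cells of a type and less RNA per cell cannot be told apart.

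Promoter sequence from RefSeq (GRCh38.p14) was listed for 6 of the 10 genes, in 7 windows of the 250 bases before a transcription start. The windows were searched on both strands for TTTCNNTTTC, the core of the interferon-stimulated response element (ISRE), and for TTCNNNGAA, the interferon gamma-activated sequence (GAS). An ISRE match was found in 3.02% and a GAS match in 6.57% of 35116 windows of the same length. Among these 7 windows, that of IFIH1 alone held a match. It had 3 ISRE matches, of which a pair overlap on the strand of the gene, 159 to 150 and 153 to 144 bases before the start, and the other lies on the opposite strand, 21 to 12 bases before it. The stretches before IFIH1 and before RIGI are shown because they encode the paired RNA receptors and differ in these letters, with ISRE matches in capitals and bases annotated as untranslated regions left out.
IFIH1, chr2:162318685-162318883, minus strand: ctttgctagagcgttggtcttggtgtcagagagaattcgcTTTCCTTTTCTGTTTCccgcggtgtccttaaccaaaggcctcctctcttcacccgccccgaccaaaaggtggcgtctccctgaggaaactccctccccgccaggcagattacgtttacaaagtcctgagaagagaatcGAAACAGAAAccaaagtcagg
RIGI, chr9:32526209-32526446, minus strand: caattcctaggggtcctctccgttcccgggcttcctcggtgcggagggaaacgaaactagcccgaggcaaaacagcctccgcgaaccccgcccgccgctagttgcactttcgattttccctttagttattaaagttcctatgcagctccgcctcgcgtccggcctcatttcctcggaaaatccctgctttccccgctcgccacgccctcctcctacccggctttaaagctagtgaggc
A match is a run of letters and no evidence of binding. The TREX1 window lay entirely within exons of ATRIP and entirely within sequence annotated as untranslated in some gene, and it is not printed.

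TREX1 was the one gene called higher in both resistant lines, by 3.61-fold in SUDHL6 and 8.26-fold in SUDHL16 (13.2-fold without CE-26). Its SUDHL16 call was lost without any one of the other 5 libraries, and TREX1 summed with ATRIP, whose exons enclose it, was called in neither line. SAMHD1 was higher in SUDHL16-resistant cells alone, by 2.82-fold. IFIH1 also passed the threshold in SUDHL6, at counts of at most 29, but it entered that test through the resistant libraries alone. The genes of the cGAS and STING arm moved less clearly. STING1, the adaptor on which cGAS depends, had 0 to 3 counts in SUDHL6 libraries and 0 in all 3 SUDHL16-resistant libraries. IFI16 and MAVS were among the most abundant of these transcripts per kilobase and were level in SUDHL6. Called genes are those with a p under 0.05 by the edgeR quasi-likelihood test, adjusted by Benjamini-Hochberg over all genes tested, and a difference of 1.5-fold or more.

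In SUDHL6, 7 of the 10 genes passed the filter on low counts, and 2 of them were called, both higher, beside a background of 8.96% of all 16662 genes tested (4.31% higher and 4.65% lower). IFIH1, 1 of the 2 called, passed this filter through the resistant libraries alone, and DHX58 through libraries of both groups. The count and the median in SUDHL6 therefore describe the genes tested and support no direction. In SUDHL16, 9 passed and 2 were called, both higher, beside 5.30% of 15708 genes (3.20% higher and 2.10% lower). Without CE-26, again 2 of 9 were called, beside 10.0% of 16280 genes (6.73% higher and 3.32% lower). The median log2 fold change was 0.00 over the 7 genes tested in SUDHL6, as over all genes. In SUDHL16 it was 0.92 over the 9 tested, where that of all genes was -0.02. Without CE-26 it was 1.28, beside 0.05 for all genes. The 1.28 is the value of ZBP1, which passed the filter in that fit through resistant libraries alone. The 10 genes were chosen with earlier results of these data known, so these counts and medians only describe them and support no direction. The change differed between the lines for 1 of 9 genes tested, SAMHD1, beside 7.16% of 19621 genes (4.34% with the larger value in SUDHL16 and 2.81% with the smaller). The labels do not say that the libraries of a group came from separate cultures, so these p-values measure the spread between libraries, which may be technical.

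**Figure D1:**
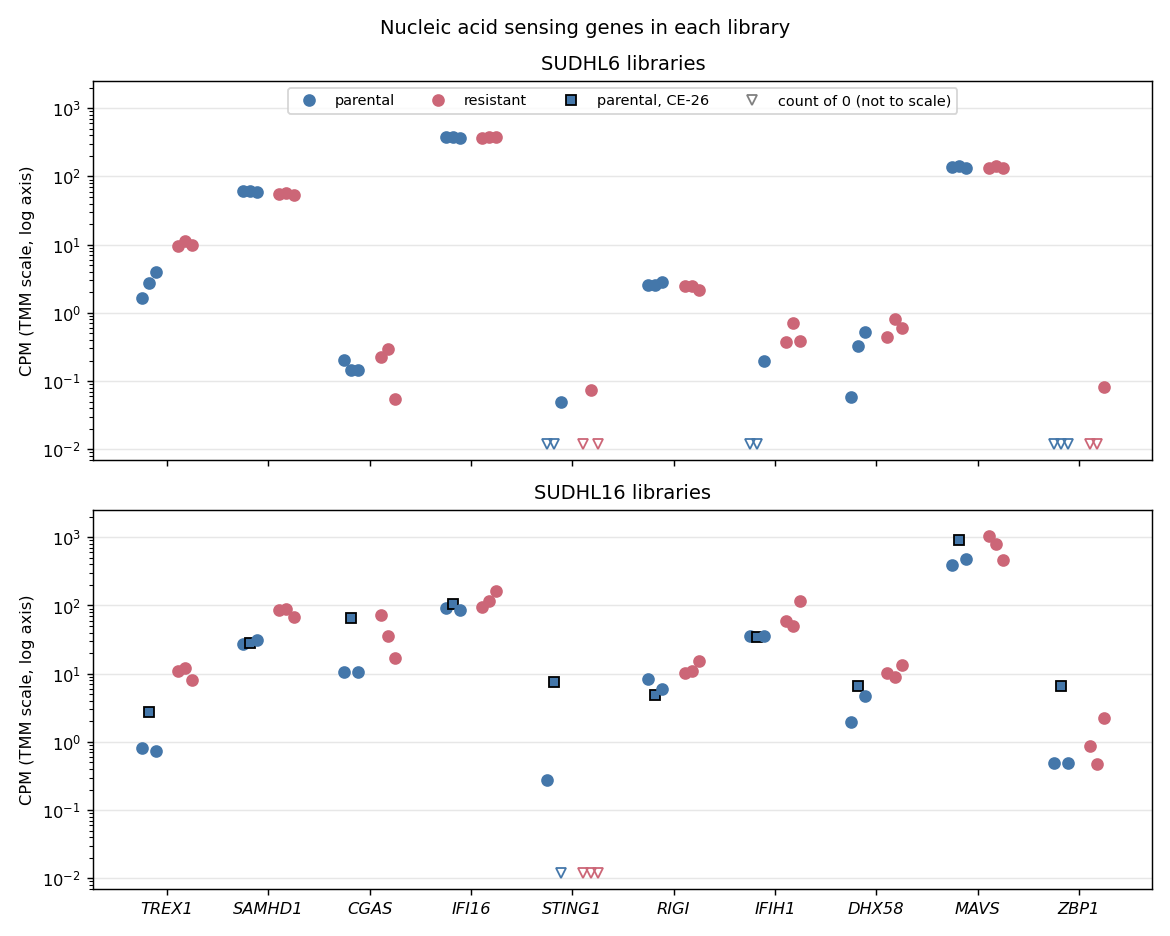
CPM of each gene in each library (log axis), with SUDHL6 above and SUDHL16 below, parental libraries in blue and resistant libraries in red; CE-26 is a square and a count of 0 is an open triangle set at the foot of the axis. TREX1 does not overlap between parental and resistant libraries in either line, SAMHD1 is raised in SUDHL16-resistant libraries, and STING1 and ZBP1 are at or near 0 in SUDHL6.

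TREX1 (ENSG00000213689, GRCh38 chr3:48465811-48467645, plus strand, 1448 exon bases) was low in parental cells. Its level was 1.64, 2.74 and 3.98 CPM in the SUDHL6-parental libraries CE-7, CE-8 and CE-9 and 9.42, 11.2 and 9.94 CPM in the SUDHL6-resistant libraries CE-10, CE-11 and CE-12. All 3 resistant libraries were above all 3 parental libraries, from means of 2.79 ± 1.17 to 10.2 ± 0.911 CPM (SD, n = 3). The log2 fold change was 1.85 (SE 0.215, edgeR quasi-likelihood adjusted p = 2.13e-05). Each of the 6 fits without 1 library kept the call, with log2 fold changes of 1.59 to 2.21.

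In SUDHL16, TREX1 was at 0.827, 2.76 and 0.745 CPM in the parental libraries CE-25, CE-26 and CE-27, which were 15, 8 and 12 counts, and at 11.1, 12 and 8.17 CPM in the resistant libraries CE-28, CE-29 and CE-30, which were 166, 254 and 192 counts. The groups again did not overlap, and CE-26 was the highest of the parental libraries. The log2 fold change was 3.05 (SE 0.627, edgeR adjusted p = 0.0293) and without CE-26 it was 3.73 (SE 0.447, edgeR adjusted p = 0.00146). The call was lost without any one of CE-25, CE-27, CE-28, CE-29 or CE-30, at adjusted p of 0.0929 to 0.152, although TREX1 kept a log2 fold change of 2.73 to 3.17 in them.

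The rise of TREX1 was 1.34 larger on the log2 scale in SUDHL16 than in SUDHL6 (SE 0.604), which did not pass the test (edgeR interaction adjusted p = 0.224). Without CE-26 the difference was 1.82 (SE 0.477, edgeR interaction adjusted p = 0.0268) and passed.

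Where TREX1 lies bears on how its counts are read. GENCODE 44 places all 1448 of its exon bases within exons of ATRIP (chr3:48446710-48467645, on the same strand), which encodes the partner of the checkpoint kinase ATR. A read from this stretch can belong to either gene, and a setting for strand cannot separate them. ATRIP itself was at 14.4, 13.8 and 16.3 CPM in SUDHL6-parental and 15.7, 15.3 and 14.3 CPM in SUDHL6-resistant libraries. Its log2 fold change was 0.02 (SE 0.0770, edgeR adjusted p = 0.859) in SUDHL6 and 0.31 (SE 0.338, edgeR adjusted p = 0.693) in SUDHL16, so ATRIP did not pass the test in either line.

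The share of TREX1 in the counts of both genes together was 10.3%, 16.5% and 19.6% in the SUDHL6-parental libraries and 37.6%, 42.2% and 41.0% in the SUDHL6-resistant libraries. In SUDHL16 it was 6.25%, 25% and 7.02% in the parental libraries, where the 25% belongs to CE-26 and has an exact binomial 95% interval of 11.5% to 43.4%, and 51.2%, 49.8% and 34.5% in the resistant libraries. The resistant shares were above the parental shares in both lines, but the interval of CE-26 overlaps that of CE-30 (30.5% to 38.6%). When the counts of both genes were summed, an alternative chosen after seeing the data, the log2 fold change fell to 0.52 in SUDHL6 (edgeR adjusted p = 3.56e-04, short of 1.5-fold) and 0.99 in SUDHL16 (edgeR adjusted p = 0.0732).

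**Figure D2:**
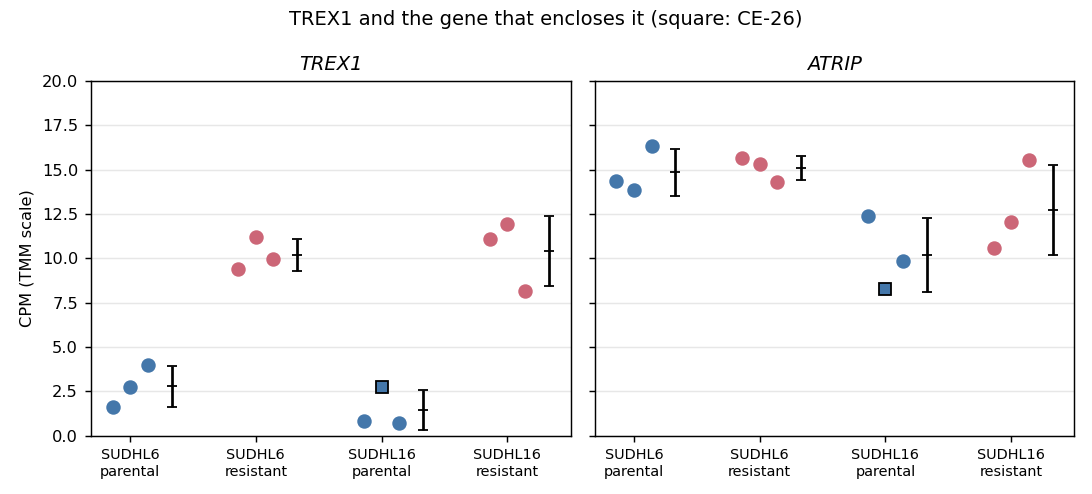
CPM of TREX1 (left) and of ATRIP, which encloses it (right), in the 4 groups; points are libraries, the square is CE-26, and bars are mean ± SD (n = 3). TREX1 rises from means of 2.79 to 10.2 CPM in SUDHL6 and from 1.44 to 10.4 CPM in SUDHL16, and the ATRIP libraries overlap between parental and resistant cells in both lines.

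SAMHD1 (ENSG00000101347, chr20:36890229-36951893, minus strand), the deoxynucleotide hydrolase, behaved differently in the lines. In SUDHL16 it was at 27.1, 28.2 and 31.2 CPM in the parental libraries, with CE-26 between the others, and at 85.5, 90.2 and 68.7 CPM in the resistant libraries. The groups did not overlap, and the means were 28.8 ± 2.11 and 81.4 ± 11.3 CPM (SD, n = 3). Its log2 fold change of 1.5 (SE 0.219) was called (edgeR adjusted p = 0.00670), and it was 1.49 without CE-26 (edgeR adjusted p = 0.00495). The call was kept without each other library except CE-29, where the adjusted p was 0.0507 at a log2 fold change of 1.42.

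In SUDHL6, SAMHD1 was at 60.1, 60.6 and 58.3 CPM in parental and 56.0, 56.8 and 54.0 CPM in resistant libraries. The resistant libraries were slightly lower without overlap, at a log2 fold change of -0.10 (SE 0.0317, edgeR adjusted p = 0.0258), short of the 1.5-fold limit. The difference between the lines was 1.63 on the log2 scale (SE 0.194, edgeR interaction adjusted p = 3.79e-04) and 1.55 without CE-26 (edgeR interaction adjusted p = 1.23e-04). Its exons share 1068 bases with TLDC2 on the opposite strand, and TLDC2 had at most 37 counts in any library.

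CGAS (ENSG00000164430, chr6:73413515-73452297, minus strand), which makes cGAMP, was close to absent in SUDHL6, with 2 to 12 counts per library. Its mean was 0.167 ± 0.0335 CPM in the parental and 0.192 ± 0.124 CPM in the resistant group (SD, n = 3). It did not pass the filter there and was not tested. SUDHL16 libraries held more, at 10.5, 64.7 and 10.4 CPM in the parental libraries, so that CE-26 was about as high as the highest resistant library, and at 72.7, 35.2 and 17.1 CPM in the resistant libraries. The resistant libraries were widely spread among themselves. Their log2 fold change was 0.61 (SE 0.780, edgeR adjusted p = 0.745). Without CE-26 the groups did not overlap and it was 2.01 (SE 0.556, edgeR adjusted p = 0.0577), and without CE-28 it was -0.04.

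STING1 (ENSG00000184584, chr5:139475533-139482935, minus strand), the cGAMP receptor, had 0, 0 and 2 counts in SUDHL6-parental and 0, 3 and 0 counts in SUDHL6-resistant libraries. In SUDHL16 it had 5, 22 and 0 counts in the parental libraries, where the 22 are in CE-26, and 0 in every resistant library. A count of 0 allows up to 3 counts, which is 0.127 to 0.201 CPM in the SUDHL16-resistant libraries. It passed the filter in neither line, and no fold is given. Apart from CE-26, every library of either line had 5 counts of it or fewer.

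IFI16 (ENSG00000163565, chr1:158999968-159055155, plus strand), a DNA sensor with pyrin and HIN domains, was level in SUDHL6. The libraries lay at 369 to 380 CPM in parental and 370 to 379 CPM in resistant cells, with a log2 fold change of -0.00 (SE 0.0194, edgeR adjusted p = 0.878). In SUDHL16 it was at 91.8, 105 and 85.2 CPM in parental and 94.0, 117 and 164 CPM in resistant libraries. The groups overlapped through CE-26, and the log2 fold change was 0.41 (SE 0.269, edgeR adjusted p = 0.465), or 0.51 without CE-26 (edgeR adjusted p = 0.306).

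IFIH1 (ENSG00000115267, chr2:162267074-162318684, minus strand), the receptor for long double-stranded RNA, was far lower in SUDHL6 than in SUDHL16 on the CPM scale, although kit and line cannot be told apart. In SUDHL6 it had 0, 0 and 8 counts in parental and 15, 29 and 14 counts in resistant libraries, the latter being 0.373, 0.718 and 0.385 CPM. No parental library reached a resistant one, and the fitted log2 fold change was 2.71 (SE 0.766, edgeR adjusted p = 0.0142), a size that depends on the libraries at 0 and on a gene that entered the test through the resistant libraries. The call was lost with DESeq2 (adjusted p = 0.147), without the filter on low counts (edgeR adjusted p = 0.0678) and without CE-11 (edgeR adjusted p = 0.0693).

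In SUDHL16, IFIH1 was at 35.1, 34.8 and 35.1 CPM in the parental libraries and 59.8, 50.3 and 115 CPM in the resistant libraries. The parental libraries, CE-26 included, were nearly equal and lay below every resistant library. The log2 fold change was 1.10 (SE 0.328, edgeR adjusted p = 0.103) and 1.11 without CE-26 (edgeR adjusted p = 0.0969), so the call was not made, whereas DESeq2 (adjusted p = 0.0362) and limma voom (adjusted p = 0.0328) passed. The change did not differ between the lines by the test (difference -1.55, SE 0.930, edgeR interaction adjusted p = 0.371).

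RIGI (ENSG00000107201, chr9:32455302-32526208, minus strand), the receptor for short RNA with 5′ triphosphates, was at 2.56, 2.54 and 2.85 CPM in SUDHL6-parental and 2.44, 2.48 and 2.15 CPM in SUDHL6-resistant libraries. The resistant libraries lay slightly lower without overlap, but the log2 fold change of -0.17 did not pass (SE 0.144, edgeR adjusted p = 0.394). RIGI was at 8.43, 4.82 and 5.96 CPM in SUDHL16-parental and 10.3, 11.1 and 15.4 CPM in SUDHL16-resistant libraries. The SUDHL16 groups did not overlap, but the log2 fold change of 0.92 (SE 0.386) was not called (edgeR adjusted p = 0.239; 0.78 without CE-26, edgeR adjusted p = 0.226). The annotation has another protein-coding gene on the same strand that shares 4471 of its 10345 exon bases and is not among the identifiers of the count files.

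DHX58 (ENSG00000108771, chr17:42101404-42112714, minus strand), which encodes LGP2, was low in SUDHL6. It had 2, 11 and 21 counts in parental and 18, 33 and 22 counts in resistant libraries, which overlapped, with a log2 fold change of 1.01 (SE 0.501, edgeR adjusted p = 0.139). Without CE-9, the highest parental library, it was 1.69 (edgeR adjusted p = 0.0442). No call is read from this, since it rests on leaving that library out, and CE-7 held only 2 counts. SUDHL16 had more of it, at 1.98, 6.54 and 4.72 CPM in the parental libraries, CE-26 being the highest, and 10.2, 8.85 and 13.2 CPM in the resistant libraries. The SUDHL16 groups did not overlap, yet the log2 fold change of 1.33 (SE 0.512) was not called (edgeR adjusted p = 0.200). Without CE-26 it was 1.69 (SE 0.468, edgeR adjusted p = 0.0575).

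MAVS (ENSG00000088888, chr20:3846799-3876123, plus strand), the adaptor on which RIG-I and MDA5 converge, was level in SUDHL6. It lay at 135 to 140 CPM in parental and 135 to 142 CPM in resistant libraries, with a log2 fold change of 0.00 (SE 0.0284, edgeR adjusted p = 0.983). In SUDHL16, MAVS was at 388, 903 and 482 CPM in the parental libraries, where the 903 belongs to CE-26, and 1029, 808 and 462 CPM in the resistant libraries. The groups overlapped with and without CE-26. Its log2 fold change was 0.38 (SE 0.430, edgeR adjusted p = 0.707), and without CE-26 it was 0.83 (SE 0.343, edgeR adjusted p = 0.187).

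ZBP1 (ENSG00000124256, chr20:57603846-57620576, minus strand), the Z-nucleic acid sensor, had 0 counts in 5 SUDHL6 libraries and 3 counts in CE-12. In SUDHL16 it had 9, 19 and 8 counts in the parental libraries, where the 19 of CE-26 correspond to 6.54 CPM, and 13, 10 and 53 counts in the resistant libraries. That gave a log2 fold change of -0.93 (SE 1.19, edgeR adjusted p = 0.745), which turned to 1.28 without CE-26 (SE 0.900, edgeR adjusted p = 0.460). At these counts no direction was detectable.

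**Figure D3:**
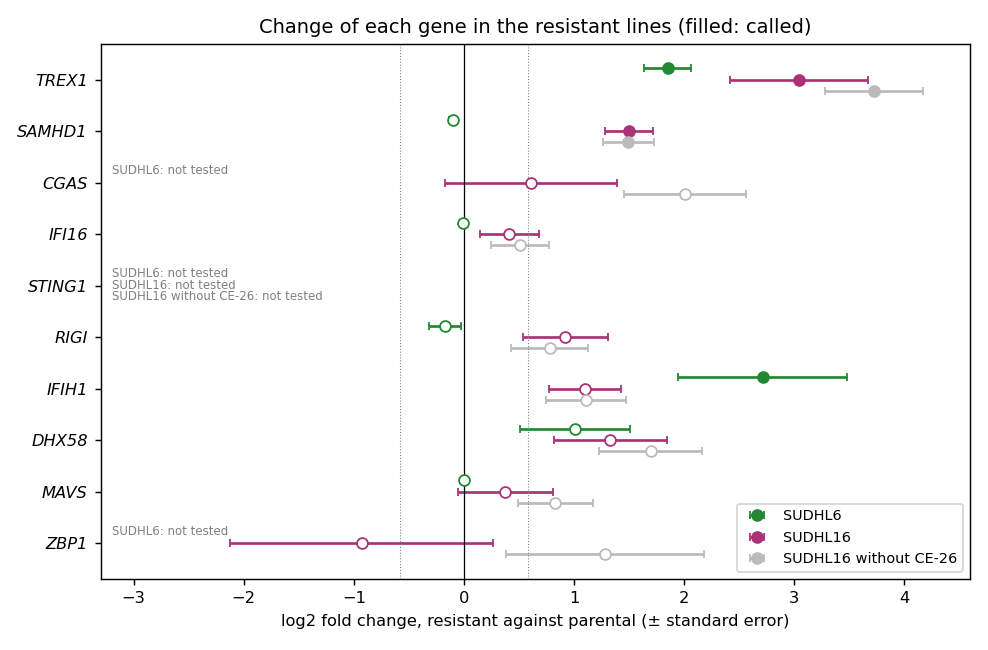
Log2 fold change of resistant against parental cells for each gene, with its standard error, in SUDHL6 (green), SUDHL16 (purple) and SUDHL16 without CE-26 (grey); filled points were called and dotted lines mark 1.5-fold. TREX1 is filled in all 3 fits, SAMHD1 lies at 1.5 in SUDHL16 and -0.10 in SUDHL6, and ZBP1 and CGAS move most when CE-26 is left out.

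Levels were also ordered within each group, as CPM per kilobase of exon. In SUDHL6-parental cells the order began with IFI16 (71.1 ± 1.18 CPM per kb), MAVS (11.6 ± 0.242), SAMHD1 (5.50 ± 0.113), TREX1 (1.93 ± 0.807) and RIGI (0.256 ± 0.0170; SD, n = 3 each), and the ranges of these neighbours did not overlap. DHX58, CGAS, IFIH1, STING1 and ZBP1 followed at 0.0784 CPM per kb or less, each overlapping the next. In SUDHL6-resistant cells TREX1 (7.03 ± 0.629 CPM per kb) had moved above SAMHD1 (5.13 ± 0.131 CPM per kb), again without overlap.

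In SUDHL16-parental cells MAVS came first (50.2 ± 23.3 CPM per kb), before IFI16 (17.8 ± 1.95), CGAS (6.84 ± 7.51), IFIH1 (6.70 ± 0.0371) and SAMHD1 (2.66 ± 0.195 CPM per kb). CGAS and IFIH1 could not be ordered, since CE-26 alone put CGAS first. From DHX58 (1.15 CPM per kb) downward each gene overlapped the next. In SUDHL16-resistant cells MAVS (65.1 ± 24.3 CPM per kb) again stood above IFI16 (23.6 ± 6.78 CPM per kb). The 5 genes from IFI16 to TREX1 in that order (IFI16, IFIH1, CGAS, SAMHD1 and TREX1) each overlapped the next, and TREX1 (7.19 ± 1.37 CPM per kb) lay clear of DHX58 (2.81 ± 0.587 CPM per kb). IFI16 thus led in SUDHL6 and MAVS in SUDHL16, with kit and line not separable. The exon length of TREX1 is wholly shared with ATRIP, so its place in these orders depends on how the shared reads were assigned.

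The genes around each locus were compared next. Among protein-coding genes within 1 Mb of TREX1, the median log2 fold change was 0.00 in SUDHL6 (43 tested, 1 called higher and 2 lower) and 0.12 in SUDHL16 (40 tested, 1 called higher and 1 lower; 0.18 without CE-26). TREX1 thus stood above the middle of its neighbourhood in both lines. The highest neighbour in SUDHL16, PFKFB4 at 3.39, lay above TREX1 at 3.05. Chromosome 20 holds SAMHD1, MAVS and ZBP1. In SUDHL16 the neighbours of MAVS had a median of 0.74 (16 of 19 above 0; 1.11 without CE-26), those of ZBP1 0.75 (6 of 7 above 0; 0.81 without CE-26) and those of SAMHD1 0.39 (12 of 19 above 0; 0.54 without CE-26), where all genes had -0.02 (0.05 without CE-26). In SUDHL6 the same 3 neighbourhoods had medians of -0.02, -0.06 and -0.11. The neighbours of DHX58 had a median of 0.18 in SUDHL6 (40 of 52 above 0, 8 called higher and 0 lower) and -0.21 in SUDHL16 (16 of 48 above 0). The part of a regional shift in the rise of SAMHD1 was not tested.

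**Figure D4:**
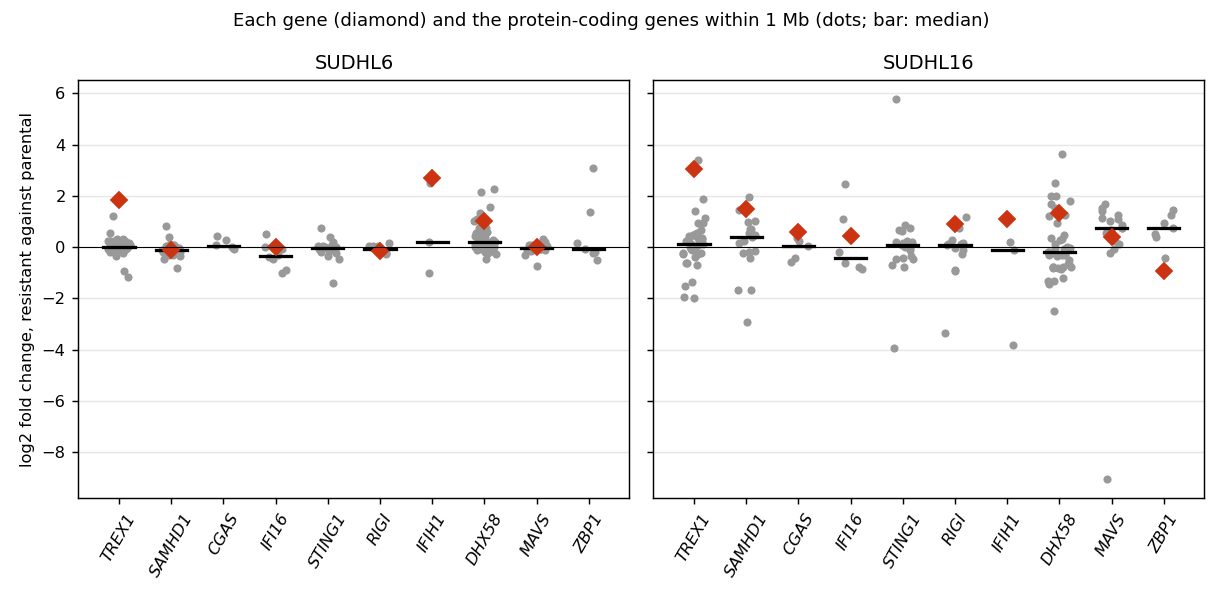
Log2 fold change of each gene (red diamond, where tested) and of the tested protein-coding genes within 1 Mb of it (grey dots, black bar at their median) in SUDHL6 (left) and SUDHL16 (right). TREX1 lies well above its neighbours' medians of 0.00 and 0.12, and the medians around SAMHD1, MAVS and ZBP1 are 0.39, 0.74 and 0.75 in SUDHL16.

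The other genes of the pathway were taken from 8 lists with 93 genes. They were written from general knowledge but with earlier results of these data known, so their shares only describe the lists. In SUDHL6, 82 were tested, of which 3 were called higher and 8 lower, with a median log2 fold change of 0.03. In SUDHL16, 81 were tested, of which 6 were called higher and 2 lower, with a median of 0.15 (12 higher and 2 lower of 82 without CE-26, median 0.12). The shares called higher and lower were 3.66% and 9.76% in SUDHL6, beside 4.31% and 4.65% of all genes, and 7.41% and 2.47% in SUDHL16, beside 3.20% and 2.10%. Without CE-26 they were 14.6% and 2.44% in SUDHL16, beside 6.73% and 3.32%. The genes called higher in that fit include TLR7, at 0 in CE-25 and CE-27, and MX1, at 0 in CE-27. Both needed the resistant libraries to pass the filter on low counts, so this share supports no direction.

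Of the 11 nucleases and RNA-editing genes that limit self nucleic acids, 2 were lower in SUDHL6 and 1 in SUDHL16. None was called higher in either fit with all 6 libraries. Without CE-26, DNASE2, named here after its values were seen, was called higher in SUDHL16 (log2 fold change 1.72, edgeR adjusted p = 0.0326). TREX2, the nuclear relative of TREX1, was the one lower in both lines. It fell from 5.67, 12.5 and 9.24 CPM to 6.61, 1.41 and 4.32 CPM in SUDHL6 (log2 fold change -1.15, SE 0.390, edgeR adjusted p = 0.0350), with overlap between the groups. In SUDHL16 it fell from 7.72, 17.9 and 23.4 CPM to 2.88, 2.26 and 2.42 CPM (log2 fold change -2.69, SE 0.492, edgeR adjusted p = 0.0183; -2.61 without CE-26), without overlap. The call was lost without CE-8, CE-9, CE-11 or CE-12 in SUDHL6 (edgeR adjusted p = 0.0630 to 0.151) and without CE-27 or any one resistant library in SUDHL16 (edgeR adjusted p = 0.0824 to 0.103). TREX2 shares 1414 of its 2586 exon bases with HAUS7 on the same strand, and HAUS7 was itself lower in SUDHL6 (log2 fold change -1.48, edgeR adjusted p = 6.35e-09) and not called in SUDHL16 (0.21, edgeR adjusted p = 0.822). RNASET2, a lysosomal ribonuclease, was at 23.6 to 25.4 CPM in SUDHL6-parental and 14.2 to 15.2 CPM in SUDHL6-resistant libraries (log2 fold change -0.74, SE 0.0604, edgeR adjusted p = 8.67e-07).

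Among 16 regulators of cGAS, STING and cGAMP, 1 was lower in SUDHL6 and 1 higher in SUDHL16. STIM1, a calcium sensor that retains STING in the endoplasmic reticulum, rose in SUDHL16 from 14.6, 9.30 and 18.8 CPM to 72.6, 60 and 70.8 CPM (log2 fold change 2.22, SE 0.290, edgeR adjusted p = 0.00417; 2.03 without CE-26). NPC1, the lysosomal cholesterol transporter, fell in SUDHL6 from 79.4 to 85.0 CPM in parental libraries to 44.4 to 48.8 CPM in resistant libraries (log2 fold change -0.82, SE 0.0416, edgeR adjusted p = 1.25e-08). It shares 619 of its 9705 exon bases with RMC1 on the opposite strand. RMC1 was also lower in SUDHL6 (log2 fold change -0.47, edgeR adjusted p = 2.97e-07), short of 1.5-fold. Of the 12 other DNA sensors and inflammasome genes, PYHIN1, a relative of IFI16, was the one called in SUDHL6. In SUDHL16, 0 of 10 tested were called with all libraries (1 with an unadjusted p under 0.05 by edgeR). Without CE-26, CASP1, named here after its values were seen, was called higher there (log2 fold change 2.97, edgeR adjusted p = 0.0103). PYHIN1 was at 52.5, 56.9 and 53.1 CPM in SUDHL6-parental and 29.8, 28.8 and 27.8 CPM in SUDHL6-resistant libraries (log2 fold change -0.91, SE 0.0446, edgeR adjusted p = 9.59e-09). It had 0 counts in all 6 SUDHL16 libraries and was not tested there.

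Of the 15 regulators of RIG-I-like receptors, 1 was higher and 1 lower in SUDHL6, and 3 were higher in SUDHL16. TRAF3, an adaptor in MAVS signalling that also restrains noncanonical NF-κB, changed in opposite directions. It fell in SUDHL6 from 23.5, 22.8 and 23.9 CPM to 14.2, 14.2 and 15.4 CPM (log2 fold change -0.68, SE 0.0609, edgeR adjusted p = 2.05e-06) and rose in SUDHL16 from 70.1, 67.2 and 71.3 CPM to 139, 155 and 133 CPM (log2 fold change 1.03, SE 0.211, edgeR adjusted p = 0.0281; 1.02 without CE-26). The difference was 1.75 on the log2 scale (edgeR interaction adjusted p = 1.51e-04). The SUDHL16 call of TRAF3 was lost without any one library other than CE-26 (edgeR adjusted p = 0.0872 to 0.135). NLRX1, a mitochondrial NLR protein, rose in SUDHL16 from 14.1 to 21.7 CPM in parental libraries to 45.4 to 58.5 CPM in resistant libraries (log2 fold change 1.53, SE 0.251, edgeR adjusted p = 0.0116; 1.40 without CE-26), a call lost without CE-25, CE-28 or CE-30 (edgeR adjusted p = 0.0548 to 0.0671). TRIM25, a ubiquitin ligase, rose there by 1.61 on the log2 scale (SE 0.331, edgeR adjusted p = 0.0293; 1.35 without CE-26), a call lost without any one library other than CE-26 (edgeR adjusted p = 0.0568 to 0.147). RNF125, another ubiquitin ligase, was higher in SUDHL6 (log2 fold change 1.04, SE 0.307, edgeR adjusted p = 0.0175) at 1.29 CPM or less, a call lost without CE-9, CE-10 or CE-12 (edgeR adjusted p = 0.0508 to 0.0680).

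Among 10 kinases and transcription factors downstream, 1 was lower in SUDHL6, and 2 were higher and 1 lower in SUDHL16. IRF5, a transcription factor of the interferon response, rose in SUDHL16 from 6.89, 7.92 and 13.2 CPM to 83.4, 71.0 and 126 CPM (log2 fold change 3.30, SE 0.358, edgeR adjusted p = 0.00191; 3.23 without CE-26). Its value in SUDHL6 was -0.49 (edgeR adjusted p = 0.0142), short of 1.5-fold. IRF7, the interferon-induced factor that amplifies interferon alpha genes, rose in SUDHL16 from 3.36, 4.82 and 5.34 CPM to 13.8, 13.5 and 21.4 CPM (log2 fold change 1.86, SE 0.388, edgeR adjusted p = 0.0310; 1.91 without CE-26), a call lost without any one library other than CE-26 (edgeR adjusted p = 0.0711 to 0.133). TBKBP1, an adaptor of the kinase TBK1, fell in both lines, by 1.12 on the log2 scale in SUDHL6 (SE 0.0924, edgeR adjusted p = 9.93e-07) and by 2.62 in SUDHL16 (SE 0.340, edgeR adjusted p = 0.00409; a log2 fold change of -2.59 without CE-26).

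Of 6 effectors of ZBP1 and PKR, 1 was called in SUDHL6 and 0 in SUDHL16, where 1 had an unadjusted p under 0.05 by edgeR. EIF2AK2, which encodes the double-stranded RNA kinase PKR, rose in SUDHL6 from 6.08, 5.58 and 7.01 CPM to 16.7, 17.4 and 16.4 CPM (log2 fold change 1.43, SE 0.0885, edgeR adjusted p = 7.51e-08), and in SUDHL16 its groups overlapped only through CE-26 (log2 fold change 0.52, edgeR adjusted p = 0.590; 0.999 without CE-26, edgeR adjusted p = 0.146). Of 11 endosomal receptor genes, 2 fell in SUDHL6 and 0 were called in SUDHL16, where 3 had an unadjusted p under 0.05 by edgeR. Without CE-26, 2 were called in SUDHL16, TLR3 and TLR7, named here after their values were seen. TLR7 was at 0 in CE-25 and CE-27 and entered that test through the resistant libraries alone. In SUDHL6, IRAK1, a kinase below Toll-like receptors, fell by 0.97 on the log2 scale (SE 0.0227, edgeR adjusted p = 1.55e-11). HSP90B1, the chaperone of Toll-like receptors, fell there by 0.99 (SE 0.0232, edgeR adjusted p = 1.56e-11).

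Interferon itself was hardly seen. Of 12 interferons, chemokines and interferon-induced genes, 4 were tested in SUDHL6 and 5 in SUDHL16. IFNL1 had 0 counts in all 12 libraries, and IFNB1 was at 0 in SUDHL6 and at 0.383 CPM or less in SUDHL16 apart from CE-26. ISG15, a ubiquitin-like protein induced by interferon, was called in SUDHL6, from 1.41, 1.36 and 1.25 CPM to 2.76, 2.60 and 2.97 CPM (log2 fold change 1.05, SE 0.156, edgeR adjusted p = 1.76e-04), and had a value of -0.16 in SUDHL16 (edgeR adjusted p = 0.891; -0.31 without CE-26). In SUDHL16 none was called with all libraries, where 2 had an unadjusted p under 0.05 by edgeR. MX1 and OAS1, an antiviral GTPase and an oligoadenylate synthetase that are named here after their values were seen, were called without CE-26. MX1 was at 1.87, 10.7 and 0 CPM in SUDHL16-parental and 61.8, 41.3 and 70.0 CPM in SUDHL16-resistant libraries (log2 fold change 4.23, edgeR adjusted p = 0.0833; 5.90 without CE-26, edgeR adjusted p = 0.00475). The 3 highest MX1 values were thus all resistant. Without CE-26, MX1 needed the resistant libraries to pass the filter on low counts, since CE-27 was at 0. The size of 5.90 depends on that library, and the call describes a gene that entered the test by its resistant libraries. OAS1 was at 0.937, 4.48 and 0.993 CPM in SUDHL16-parental and 13, 10.7 and 12.5 CPM in SUDHL16-resistant libraries (log2 fold change 2.70, edgeR adjusted p = 0.0578; 3.65 without CE-26, edgeR adjusted p = 0.00101).

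**Figure D5:**
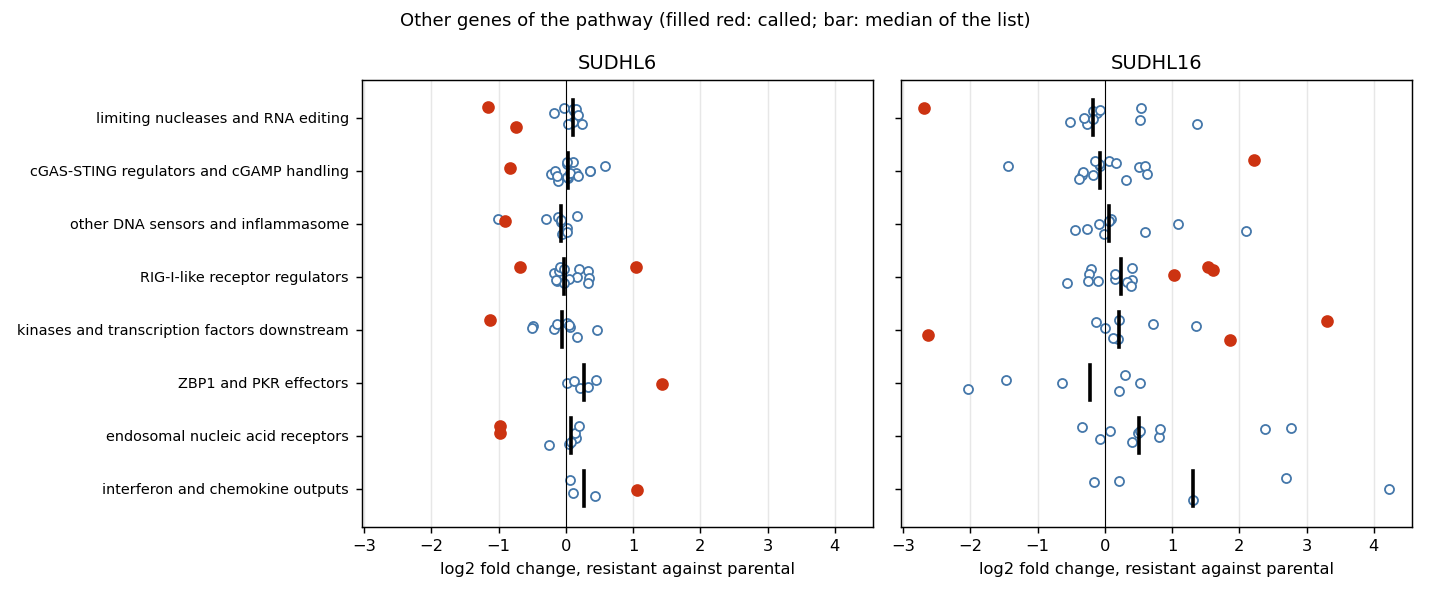
Log2 fold change of the tested genes of the 8 lists in SUDHL6 (left) and SUDHL16 (right); each point is a gene, filled red where called, and the black bar is the median of the list. SUDHL6 has 3 genes called higher and 8 lower, and SUDHL16 has 6 higher and 2 lower, with IRF5 farthest to the right among the called genes at 3.30.

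The genes whose pattern was most like that of TREX1 were found by Pearson's r of log2 CPM, centred within each line, over 9973 protein-coding genes whose mean reached 5 CPM. The points share their libraries and the step from parental to resistant, and no p is given. The 5 nearest over 12 libraries were OAS2 (r = 0.960), SEMA6C (0.951), GRAMD1B (0.951), GALNT14 (0.948) and RASAL3 (0.944), and without CE-26 their r was 0.953 to 0.974. OAS2, an oligoadenylate synthetase of the interferon response, was at means of 5.72 ± 0.422 and 23.9 ± 1.64 CPM in SUDHL6-parental and SUDHL6-resistant cells and 3.24 ± 1.67 and 33 ± 4.40 CPM in SUDHL16-parental and SUDHL16-resistant cells (SD, n = 3). It was called in both lines, with 2.07 in SUDHL6 (edgeR adjusted p = 1.35e-09) and 3.47 in SUDHL16 on the log2 scale (edgeR adjusted p = 0.00238; 3.86 without CE-26). The others were also called higher in SUDHL6. In SUDHL16, RASAL3 and GALNT14 were called (edgeR adjusted p = 0.00576 and 0.0296). SEMA6C and GRAMD1B were not called there with all libraries (edgeR adjusted p = 0.258 and 0.141). GALNT14 reached 5 CPM only through SUDHL16-resistant cells, at a mean of 39.2 CPM. Its means were 0.0981, 1.13 and 1.03 CPM in SUDHL6-parental, SUDHL6-resistant and SUDHL16-parental cells. OAS2, GRAMD1B and SEMA6C also needed the resistant libraries to reach a mean of 5 CPM. In SUDHL6-parental and SUDHL16-parental cells GRAMD1B was at means of 0.804 and 3.67 CPM, and SEMA6C at 3.68 and 4.42 CPM. RASAL3 did not need them, at 31.6 and 21.9 CPM. The limit thus favours genes that are high in resistant libraries, and the list supports no direction. Among the 10 genes themselves, DHX58 (r = 0.836), SAMHD1 (0.728) and IFIH1 (0.706) were nearest to TREX1, and ATRIP had r = 0.272.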

How the data were processed

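RNA from 12 libraries, 3 of each parental and venetoclax-resistant SUDHL6 and SUDHL16 group, was sequenced. The authors trimmed adapters with Trim Galore, aligned reads to GRCh38 with HISAT2 and assembled transcripts with StringTie, and deposited whole-number read counts per gene without normalization. The tool, annotation and strand setting of the counting are not given in the sources used here, so overlapping genes may share reads. Groups were taken from the labels, and libraries are named by their titles.

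Of 60675 identifiers, 56558 were matched to GENCODE 44. Counts of each line were fitted alone with edgeR 4.0.16 in R 4.3.3 (filterByExpr, TMM, two-sided quasi-likelihood test, Benjamini-Hochberg adjustment over all genes tested), and the lines were compared by the interaction in 1 fit of 12 libraries. Genes with adjusted p under 0.05 and at least 1.5-fold were called. CPM are on the TMM scale of each line, log2 CPM for likeness used a prior count of 2, and levels per kb used the union of exon bases. For a count of 0, the upper limit is 3 counts. Floors and exact binomial intervals cover counting error only. Total counts were 4131927 to 40885665, and low counts in CE-26 give the least precise values.

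The members and lists were chosen with earlier results of these data known. Named were all members, up to 3 called genes per list and line with the smallest adjusted p, and the 5 genes most like TREX1. Alternatives were DESeq2 1.42.0, upper-quartile scaling, library totals, no filter, the edgeR exact test, glmTreat, protein-coding genes only, voom with quality weights (limma 3.58.1), 1 fit of all libraries and each library left out, and, chosen after seeing the data, TREX1 and ATRIP summed. The fits were tested on simulated counts. Of the B cell markers, 1 is not reported here. Scripts used Python 3.11.15 with pandas 2.3.3, scipy 1.17.1 and matplotlib 3.10.9.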

Additional observations from a re-analysis of the deposited data

Results flagged for a closer look

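The change from parental to resistant cells differed between SUDHL6 and SUDHL16 by the edgeR interaction test for 1 of 9 members tested and 12 of 84 pathway genes tested (10.7% higher and 3.57% lower in SUDHL16), beside 7.16% of all genes. For SAMHD1 the difference, SUDHL16 minus SUDHL6 on the log2 scale, was 1.63 (adjusted p = 3.79e-04), with the higher value in all 3 SUDHL16-resistant libraries. It was 3.81 for IRF5 (adjusted p = 2.15e-04), 1.86 for STIM1 (adjusted p = 0.00295), 1.75 for TRAF3 (adjusted p = 1.51e-04) and 1.73 for IRF7 (adjusted p = 0.00646). It was 1.53 for HSP90B1 (adjusted p = 0.00272), 1.5 for IRAK1 (adjusted p = 0.0191) and 1.19 for NLRX1 (adjusted p = 0.0228), all by edgeR. For TBKBP1, which fell in both lines, it was -1.47 (edgeR adjusted p = 0.0154). The other 4 pathway genes, named after their values were seen, were OAS1 with 2.61 (edgeR adjusted p = 0.00775), DNASE2 with 1.46 (edgeR adjusted p = 0.0365), ENPP1 with -5.20 (edgeR adjusted p = 0.0142) and RIPK3 with -1.77 (edgeR adjusted p = 0.0152). ENPP1 had 10 to 17 counts in SUDHL16-parental and 0 to 2 counts in SUDHL16-resistant libraries. It did not pass the filter in the fit of SUDHL16 alone with all libraries. The size of its difference rests on these low counts, and it was -4.04 without CE-26. Without CE-26, SAMHD1 and these pathway genes kept their calls and signs. The differences of IRAK1, NLRX1 and TBKBP1 lost their call in 10, 11 and 6 of 19 alternatives. The lines also differ in library kit and instrument, which cannot be told apart from the line.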

How the results depend on the processing

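No paired analysis was possible because the labels give the libraries no replicate numbers. With 2 members called in SUDHL6, the count was 1 with DESeq2, without the filter and with glmTreat, 0 in the single fit of 12 libraries, and 1 (without CE-11) to 3 (without CE-9) with 1 library left out. With 2 called in SUDHL16, it was 5 with voom and 0 to 2 with 1 library left out (0 without CE-29). For the difference between the lines, 1 became 3 with voom and 1 to 2 with 1 library left out (2 without CE-26). The 11 list genes called in SUDHL6 became 7 with glmTreat and 3 in the single fit. The 8 called in SUDHL16 became 14 with DESeq2, 5 with glmTreat, 19 with voom, 16 in the single fit, and 3 to 14 with 1 library left out, the 14 being without CE-26. Near 0, IFI16 in SUDHL6 turned to 0.0118 with upper-quartile scaling, 0.0043 with library totals and 5.2e-05 without the filter, and ran from -0.0194 to 0.0056 with 1 library left out, and MAVS in SUDHL6 from -0.0249 to 0.0189. With 1 library left out, CGAS in SUDHL16 ran from -0.0432 to 2.01, ZBP1 in SUDHL16 from -1.78 to 1.28 (0.60 with voom), and the differences between the lines from -0.0894 to 1.71 for CGAS and -0.28 to 0.84 for DHX58. The cause was not tested. Scaling moved the median of all genes in SUDHL16 to -0.11 (upper quartile) and 0.11 (totals). Without the filter it was -1.18, over 41969 genes instead of 15708. All genes called in SUDHL16 ranged from 279 to 2855 over the alternatives, and in SUDHL6 from 140 to 1541. Between the lines, 1404 genes differed, and 830 to 2893 over the alternatives, with 60.7% of them higher and 48.9% with DESeq2. In the single fit TREX1 in SUDHL6 had an edgeR adjusted p of 0.0802. Low counts limit STING1, ZBP1, CGAS and IFIH1 in SUDHL6.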
